A study of Mus musculus with 80 samples.

Results

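The early expression response of mouse embryonic stem cells (ESCs) to 2i was described from RNA-seq of 6 libraries, 3 from cells kept in serum and 3 from cells 6 h after transfer. All rows of the deposited expression table were considered, 25965 in number, and 12306 of them carried enough signal to be tested. The cells were the wild-type line E14 without an engineered allele. Serum ESCs were cultured with fetal calf serum and the cytokine LIF. For 2i they were moved to a serum-free N2B27 medium that kept LIF and added PD0325901, an inhibitor of the kinase MEK, and CHIR99021, an inhibitor of the kinase GSK3. Serum was thus withdrawn, the base medium changed and both inhibitors added in one step, so that their shares in any change cannot be told apart. No fresh-medium control at 6 h was among the samples analyzed here. Libraries of 24 h and 72 h in 2i, 3 each, entered the same fit and gave the later values below, and the series as a whole holds 80 samples.

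MEK passes signals from growth factor receptors such as that of FGF4 to the kinase ERK, which switches on early transcription factors and, with them, a set of inhibitors that restrain the pathway. GSK3 marks β-catenin for destruction, so its inhibition lets β-catenin act with TCF factors on Wnt target genes. In mouse ESCs the first pathway favors exit from pluripotency, the second relieves repression of naive genes by TCF factors, and LIF sustains naive genes through STAT3.

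The deposited values are log2 expression levels corrected for gene length and library size and set to a common 75th percentile, which was 2.51 in every library. The total number of reads per library is unknown. Correlation between libraries of a group lay between 0.9885 and 0.9933 in serum and between 0.9876 and 0.9937 at 6 h, and the median SD of a gene was 0.128 and 0.12 on the log2 scale. Between 31.9% and 35.1% of rows lay at the floor, the value given to a gene without reads, in single libraries of the 2 groups. Defining ESC markers were at high levels in both groups, though several of them changed. *Nanog* (1.11) and *Esrrb* (0.51) were called higher and *Sox2* (-0.85) and *Zfp42* (-0.49) lower, as given below. *Pou5f1*, the central pluripotency factor, lay at 8.35, 8.39 and 8.14 in serum and at 8.13, 8.02 and 7.89 at 6 h (log2 change -0.28, adjusted p 0.712), and *Dppa5a* changed by -0.05. Of 16 housekeeping genes 15 were tested and 0 were called by limma at an adjusted p under 0.05, with a median change of 0.05. At an unadjusted p under 0.05 there were 2, and other settings called 0 to 2 of them.

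At 6 h, 1934 genes differed from serum at a Benjamini-Hochberg adjusted p under 0.05 in limma, 15.7% of those tested. Of these, 1133 were higher (9.21%) and 801 lower (6.51%), and 3257 genes had an unadjusted p under 0.05. Most called changes were small. The median size was 0.78 on the log2 scale, or 1.71-fold, in both directions, and 66% of called changes were under 2-fold. Sizes from 0.5 to 1 were found in 914 called genes, from 1 to 2 in 543, from 2 to 3 in 93 and of 3 or more in 22. The genes just inside the threshold had changes of 0.33 to 0.66 in size and those just outside 0.36 to 0.67. Being neighbors in adjusted p, they cannot show how size differs between called and other genes. The median size was 0.2 over all genes tested. A change of more than 2-fold was itself supported in 148 genes (limma treat against 2-fold, adjusted p under 0.05), 1.2% of those tested, 80 higher and 68 lower. The pathway lists below are to be read against these values over all genes, 15.7% called and a median change of 0.011. In bulk RNA, fewer cells holding a transcript and less transcript per cell cannot be told apart.

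The pooled fit drew its spread from all 12 libraries, and those of 24 h and 72 h varied more (median SD 0.285 and 0.214). With only the 6 libraries compared, 3485 genes were called, 1944 higher and 1541 lower, and 1922 of the 1934 were among them. The count fell to 1280 without serum replicate 1 and to 1271 without 6 h replicate 2, and the genes called lower fell to 524 and 502 and, without 6 h replicate 1, to 523. All fits without 1 library, here and below, kept the libraries of 24 h and 72 h.

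**Figure D1:**
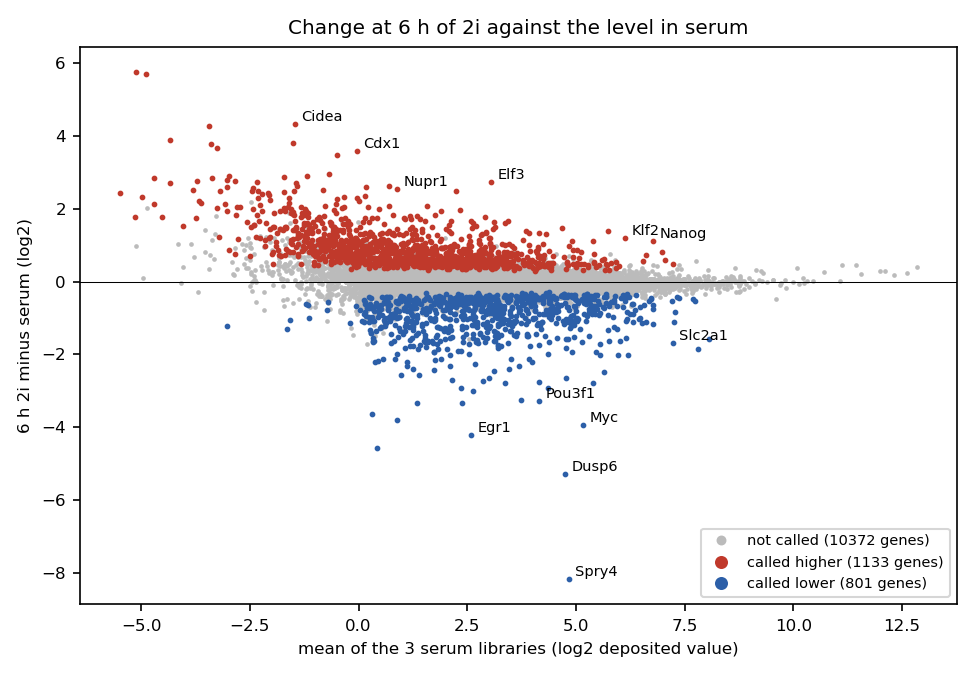
Log2 change at 6 h of 2i (vertical axis) against the mean log2 level in serum (horizontal axis), 1 point for each of the 12306 tested genes, with the 1133 called higher in red, the 801 called lower in blue and the others in grey. The 2 largest falls, of *Spry4* at -8.15 and *Dusp6* at -5.28, start from serum levels of 4.84 and 4.75, and the largest rises start from levels below 0.

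Rises and falls were spread differently over the range of expression. Tested genes were divided by serum level into 3 sets of 4102. In the low set (up to 1.75), 735 were called higher and 218 lower, in the middle set 285 and 289, and in the high set (from 3.54) 113 and 294. The median rise was 0.91 in the low set and 0.52 in the high set, and the median fall was -0.91 and -0.7. A gene with a serum level below 0 was tested only if it reached 0 in libraries of another group, so the excess of rises at low levels is in part fixed by the filter. When a level of 2 or more was required in at least 3 libraries, 640 genes were called higher and 541 lower out of 8709, and 33 and 47 changed by more than 2-fold.

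**Figure D2:**
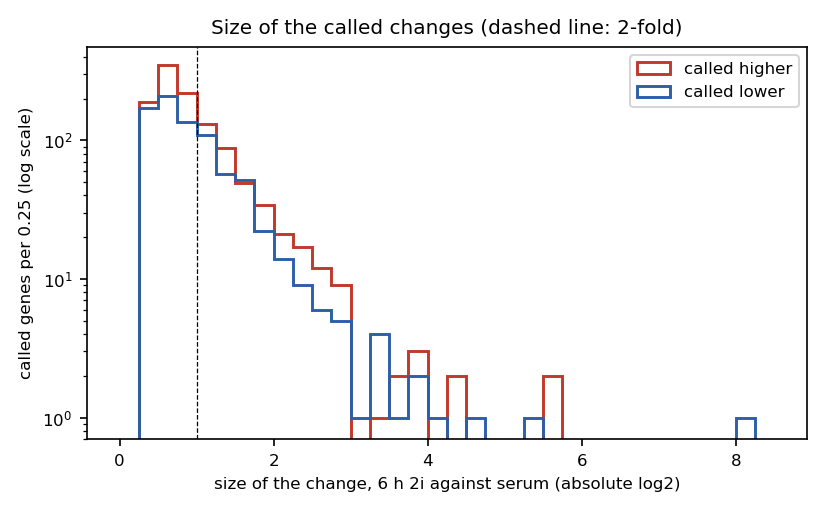
Number of called genes (vertical axis, log scale, bins of 0.25) by the size of the change at 6 h (horizontal axis, absolute log2), with genes called higher in red and lower in blue. Both distributions have a median of 0.78, lie mostly left of the dashed 2-fold line, and end at 5.73 for rises and 8.15 for falls.

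Inhibitors of the ERK pathway that ERK itself induces included the 2 largest falls of the response. Of 16 tested members of this feedback list, 10 were called lower, 3 higher, and 6 changed by more than 2-fold, with a median log2 change of -1.18 beside 0.011 over all genes tested. *Spry4*, a Sprouty protein that blocks signaling upstream of RAF, lay at 4.77, 4.74 and 5.00 in serum and at -2.83, -3.23 and -3.87 at 6 h. The 2 groups were far apart, and the change of -8.15 ± 0.54 (SE; adjusted p 3.28e-06), a 283-fold fall, was the largest among all called genes. *Dusp6* (chromosome 10, 99263231-99267488, GRCm38), the phosphatase that inactivates ERK in the cytoplasm, went from 4.81, 4.80 and 4.64 to -0.37, -0.64 and -0.57, a 38.8-fold fall (log2 -5.28, 95% interval -5.67 to -4.89). *Dusp4*, a nuclear ERK phosphatase, fell by 3.26, *Spry2* by 2.77, *Spred3* by 2.58, *Spred1* by 2.12 and *Spry1* by 1.90. The 3 members called higher were *Dusp14* (0.96), *Tob1* (0.55) and *Rasa4* (0.52). The call of *Tob1* was lost without serum replicate 2 or 6 h replicate 2 and with the trend in gene span removed, and that of *Rasa4* without serum replicate 1 or 2 or 6 h replicate 2 or 3. *Dusp1*, a phosphatase that many stresses induce, changed by -0.07 and was not called.

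The immediate early genes, which ERK turns on within minutes of a growth signal, fell in part. Of 18 tested, 10 were called lower and 1 higher, with a median of -0.7. *Egr1*, the zinc finger factor most used as an ERK readout, lay at 2.50, 2.55 and 2.74 in serum and at -1.80, -1.78 and -1.25 at 6 h, an 18.5-fold fall (log2 -4.21 ± 0.36, adjusted p 1.76e-05). *Phlda1* fell by 2.73, *Maff* by 1.67, *Elk3* by 1.55 and *Ier3* by 1.44. *Fos* was low in both groups, at 0.03, -0.39 and 0.56 and then at -0.12, -0.01 and -0.28, and its change of -0.20 was not called (adjusted p 0.631). *Klf10*, a TGFβ-inducible zinc finger gene, was the member that rose, by 1.32. *Egr2* and *Egr3* were below the level required for testing, with group means of -3.75 and -2.08 in serum and -5.42 and -4.84 at 6 h.

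ETS factors, among them the PEA3 group (*Etv1*, *Etv4* and *Etv5*) that acts further down the FGF pathway, differed from gene to gene, and the list of 6 with *Elf4*, *Ets1* and *Ets2* had a median of -0.01. *Etv1* fell by 1.89 ± 0.26 and *Etv4* by 1.07 ± 0.12, whereas *Etv5* lay at 6.56, 6.52 and 6.73 and then at 6.56, 6.50 and 6.60, with a change of -0.05 (adjusted p 0.891). *Elf4*, another ETS gene of the list, was higher by 1.00 (adjusted p 0.0459), a call that was lost without the filter on low values, on the log2 (value + 1) scale, and without any 1 of the 6 libraries except serum replicate 3. Of 22 tested ligands, receptors and kinases of the cascade, 3 were called, a share near the 15.7% of all genes, with a median of 0.05. *Fgf15*, a ligand, fell by 2.02 and *Fgfr1*, a receptor, rose by 0.94, while *Fgf4* (0.30), *Map2k1* (-0.23) and *Mapk3* (-0.02) did not pass the test. *Fgf4* was called in 5 other settings, among them the 6 libraries alone (0.0259) and quantile normalization (0.0497). The ligand *Fgf8* was called higher by 0.96 (adjusted p 0.0396) but not under quantile normalization (0.109), without the filter (0.0663), or without any 1 of the 6 libraries.

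**Figure D3:**
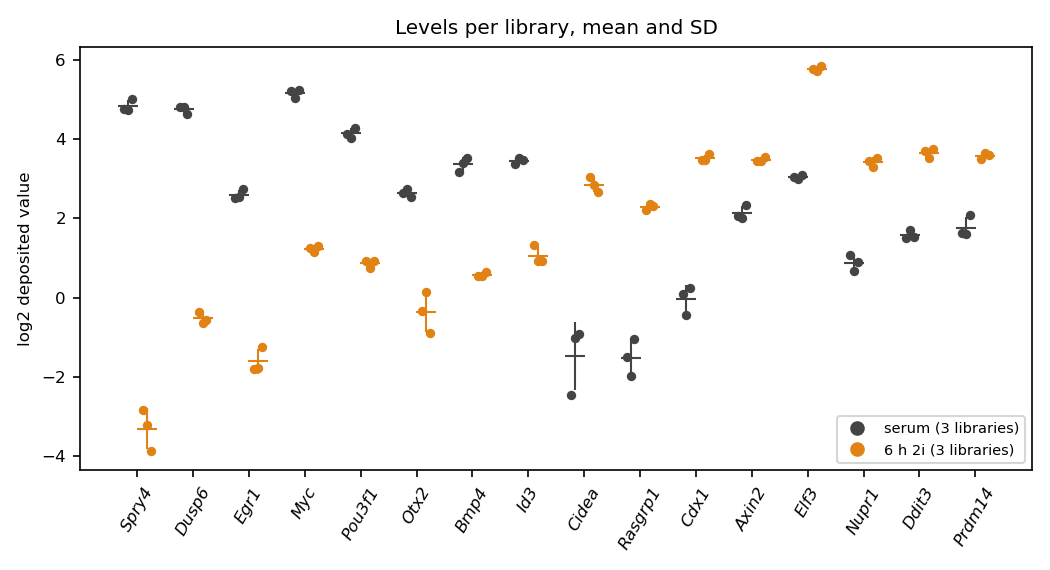
Log2 deposited values in the 3 serum libraries (dark) and the 3 libraries of 6 h 2i (orange) for 8 genes that fell and 8 that rose, with a horizontal bar at the mean and a vertical line for the SD. The 2 groups do not overlap in these genes, as in 44.4% of all tested genes, and the gap is widest for *Spry4*.

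Direct targets of Wnt signaling were mixed, with more called rises than falls. Of 16 tested, 6 were called higher and 2 lower, with a median of 0.46. *Cdx1*, a caudal-type homeobox gene, lay at 0.09, -0.45 and 0.23 in serum and at 3.48, 3.47 and 3.62 at 6 h, an 11.9-fold rise (log2 3.57 ± 0.34, adjusted p 4.01e-05). *Axin2*, the negative feedback gene of the pathway, went from 2.07, 2.01 and 2.32 to 3.45, 3.44 and 3.55, a 2.54-fold rise. *Sp8* rose by 1.80, *Tnfrsf19* by 1.63, *Nkd1*, an inhibitor of Dishevelled, by 1.45, and *Sp5* by 1.12. *Sp8* reached the level required for testing only in the libraries of 6 h, so its call is in part fixed by the filter. The related caudal gene *Cdx2* lay at -0.55, -0.50 and -0.11 and then at 1.46, 1.24 and 1.01, and was not called (log2 1.62 ± 0.72, adjusted p 0.179), though it was in the 6 libraries alone (0.000579) and on the log2 (value + 1) scale (0.00165). The called falls were *Bmp4* (-2.79), also a BMP ligand, and *Lef1* (-0.89), a TCF-family factor. *T* (-0.18) and *Ascl2* (-0.22) did not pass the test.

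Among 24 tested components of the Wnt cascade, 2 were called higher, 3 lower and 19 not, 20.8% beside the 15.7% of all genes, and the median was -0.01. The receptor *Fzd10* rose by 1.37 and *Fzd8* by 0.86, while *Fzd7* fell by 1.00 and *Fzd5* by 0.57, the last a call lost without serum replicate 3 or 6 h replicate 1 or 2 and with the trend in gene span removed. *Tle4*, a co-repressor that TCF factors recruit, went from 5.29, 5.22 and 5.41 to 3.79, 3.84 and 3.84, a 2.79-fold fall. *Ctnnb1*, which encodes β-catenin, changed by -0.07 and was not called. With only the 6 libraries compared, 9 of the 24 were called.

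BMP ligands and their targets moved in both directions. Of 16 tested, 4 were called higher and 6 lower, with a median of -0.06. *Bmp4* lay at 3.18, 3.39 and 3.52 in serum and at 0.54, 0.55 and 0.63 at 6 h, a 6.91-fold fall (adjusted p 1.81e-07). The ID genes, which encode inhibitors of basic helix-loop-helix factors and are classical BMP targets in ESCs, changed unequally. *Id3* fell by 2.40 ± 0.30, *Id2* by 1.10 and *Id1* by 0.96, and *Id4* rose by 0.97. The call for *Id1* (adjusted p 0.0147) was lost without serum replicate 3 (0.0534) or 6 h replicate 2 (0.0567). *Smad7*, an inhibitor of BMP and TGFβ receptors, fell by 1.48, and the ligand *Bmp7* rose from -1.38, -1.72 and -0.79 to 0.47, 0.59 and 0.65.

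In the Nodal and Activin list, 3 of 16 were called higher and 3 lower, with a median of -0.03. *Lefty1*, a Nodal antagonist and target, rose 2.53-fold, from 4.11, 4.07 and 4.30 to 5.46, 5.48 and 5.56, and *Nodal* rose by 0.39, a call lost without the filter and without any 1 of the 6 libraries. *Lefty2* changed by 0.18 (95% interval -0.12 to 0.48) and was not called. *Inhbb*, which encodes an Activin subunit, fell 4.79-fold.

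LIF was present in both media, and its list of 18 tested genes had a median of -0.03, with 6 lower and 1 higher. The receptor gene *Lifr* fell by 0.93 and the kinase gene *Pim3* by 0.91, and *Socs2* by 0.91. *Socs3*, the feedback inhibitor induced by STAT3, was at the edge of the threshold (log2 -0.33, adjusted p 0.0499). Its call was lost under quantile normalization (0.0604), centering on the median (0.0529), without the filter (0.0869) and without any 1 of the 6 libraries. *Stat3* (0.06) and *Gbx2* (-0.22) did not pass the test. The gene called higher was *Tfcp2l1*, a naive factor, which is described next.

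Naive pluripotency factors shifted unevenly within 6 h. Of 18 tested, 7 were called higher and 4 lower, with a median of 0.38. *Prdm14*, which represses FGF signaling and de novo methyltransferases, lay at 1.62, 1.60 and 2.09 in serum and at 3.51, 3.65 and 3.60 at 6 h, a 3.52-fold rise (log2 1.82 ± 0.14, adjusted p 1.05e-05). *Tfcp2l1* went from 4.57, 4.60 and 4.84 to 6.02, 6.09 and 6.29, *Klf2* from 6.12, 6.04 and 6.21 to 7.25, 7.30 and 7.36, and *Nanog* from 6.87, 6.83 and 6.62 to 7.98, 7.94 and 7.74. These 3 rises were of 2.76-fold, 2.27-fold and 2.16-fold. *Nr5a2* rose by 0.79 and *Tbx3* by 0.59, of which the second call was lost under quantile normalization, without the filter and without any 1 of the 6 libraries. *Esrrb* was called higher by 0.51 (adjusted p 0.0318), but not under quantile normalization (0.0888), without the filter (0.0569), or without serum replicate 1 or 2 or any 1 of the 6 h libraries.

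Other naive genes went the opposite way. *Klf5* fell by 1.10, *Nr0b1* by 0.90, *Sall1* by 0.75 and *Zfp42*, also known as Rex1, by 0.49. The call of *Sall1* was lost in 5 other settings and without any 1 of the 6 libraries, and that of *Zfp42* without the filter and without any 1 of the 6 libraries except serum replicate 3. *Klf4* lay at 5.19, 5.16 and 5.47 and then at 5.57, 5.60 and 5.72 and was not called (log2 0.35, adjusted p 0.0567). With the replicate numbers as a block it was called (0.0449), as it was with the 6 libraries alone, centering on the median, the log2 (value + 1) scale and without serum replicate 3. The 11 calls of the naive list were 7 without the filter on low values, and 7 without serum replicate 1 or 2 or without 6 h replicate 1 or 2.

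The general pluripotency list had no member called higher, 9 of 17 lower and a median of -0.53. *Foxd3*, a forkhead repressor, went from 4.32, 4.21 and 4.52 to 1.40, 1.36 and 1.53, a 7.56-fold fall. *Utf1*, a chromatin factor of serum ESCs, fell 3.61-fold from 7.79, 7.71 and 7.89 to 5.94, 5.99 and 5.91. *Dppa4* fell by 1.33 and *Dppa2* by 1.25. *Sox2*, the partner of OCT4, fell from 7.19, 7.21 and 7.44 to 6.44, 6.34 and 6.53, a 1.8-fold fall.

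Genes that mark the formative and primed states, which follow naive pluripotency in the embryo, formed the list with the largest number of falls. Of 21 tested, 14 were called lower and 1 higher, with a median of -0.8. The list shares *Etv4*, *Fgf15*, *Lef1* and the *Dnmt3* genes with other lists given here. *Pou3f1*, also known as Oct6, lay at 4.13, 4.02 and 4.29 in serum and at 0.92, 0.75 and 0.92 at 6 h, a 9.73-fold fall (adjusted p 1.41e-06). *Otx2*, which moves OCT4 to new enhancers, went from 2.64, 2.74 and 2.54 to -0.33, 0.15 and -0.89, an 8-fold fall. *Enpp3* fell by 2.77, *Grhl2* by 1.39, *Zic2* by 0.93 and *Sox4* by 0.70. The member that rose was *Cd24a* (0.65), a call lost without serum replicate 1 or 3 or 6 h replicate 1 or 2, and *Sox3* (0.05) and *Krt8* (0.08) did not pass the test. *Fgf5*, the best known formative gene, was too low to be tested, at 0.49, 0.21 and -0.03 in serum and -3.41, -3.20 and -2.41 at 6 h.

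**Figure D4:**
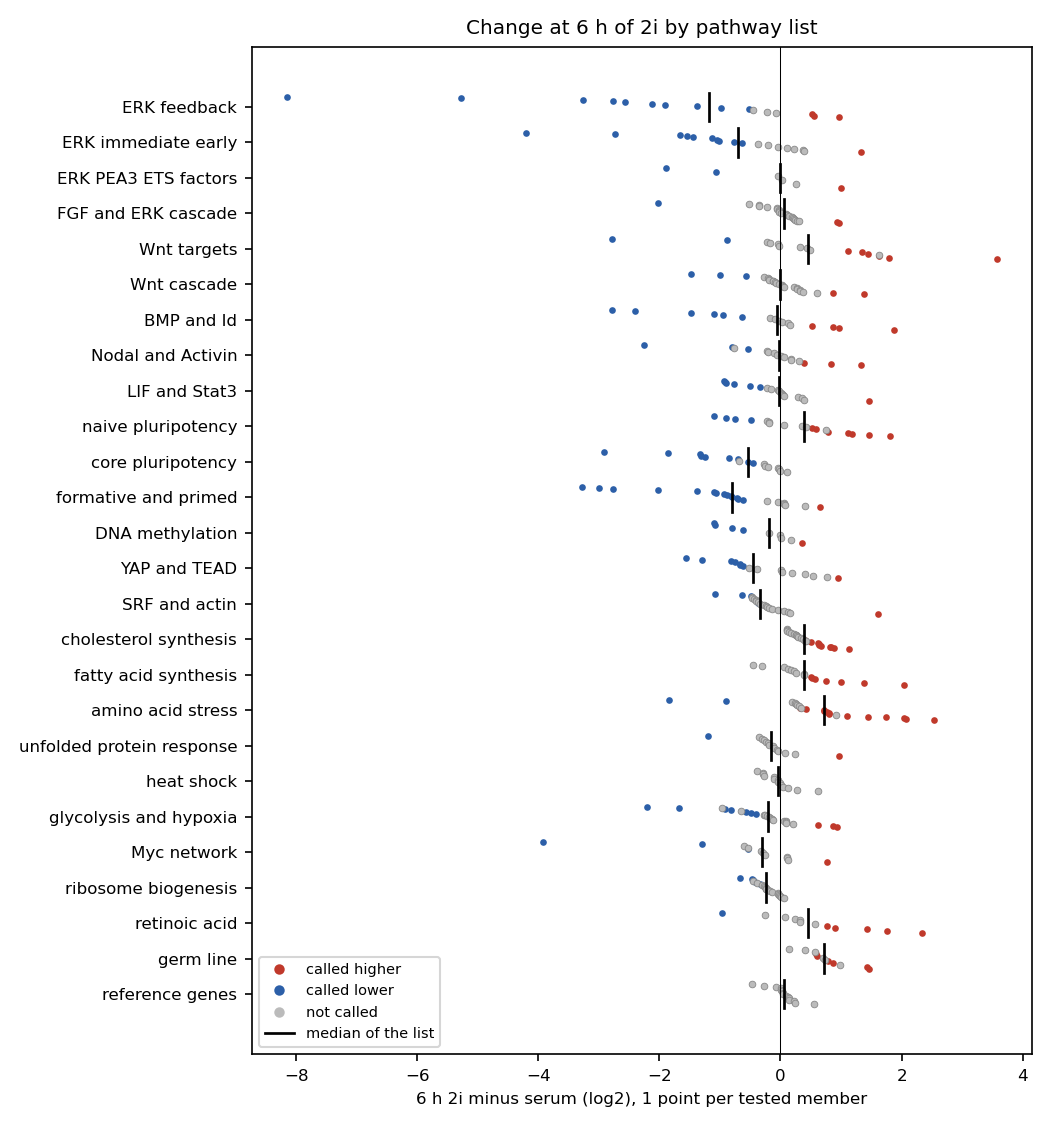
Log2 change at 6 h of 2i (horizontal axis) for every tested member of 26 pathway lists (rows), with members called higher in red, called lower in blue and not called in grey, and a black bar at the median of each list. The ERK feedback, formative and primed lists lie mostly left of 0, cholesterol synthesis and germ line lie right of it, amino acid stress lies mostly right of it with 2 members called lower, and reference genes lie between -0.47 and 0.55.

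Enzymes of DNA methylation, which the study followed over the whole conversion, were called in 5 of 9 cases. *Dnmt3l*, the cofactor of de novo methylation, went from 6.59, 6.60 and 6.66 to 5.59, 5.46 and 5.50 (2.14-fold lower, adjusted p 0.000283). The de novo enzymes *Dnmt3a* and *Dnmt3b* fell by 0.80 and 0.61. *Uhrf1*, which directs maintenance methylation, lay at 5.87, 5.81 and 6.05 and then at 6.29, 6.17 and 6.36, a rise of 0.36 (adjusted p 0.0422). That call was lost under quantile normalization, without the filter and without any 1 of the 6 libraries except serum replicate 3, and the call of *Dnmt3b* was lost without serum replicate 3 or 6 h replicate 2. *Dnmt1* was not called, with a change of 0.00 ± 0.22. *Tet1* fell by 1.08 (adjusted p 0.0189), and its call was lost without any 1 serum library (0.0526 to 0.0666) or 6 h replicate 1 or 2 (0.0725 and 0.0621). Its SD was 0.10 in serum and 0.13 at 6 h, but 0.50 at 24 h and 0.50 at 72 h, and those later libraries stayed in these fits. Of the 9 genes, 1 was called higher and 4 lower, with a median of -0.19, and the 5 calls were 3 without any 1 serum library or without 6 h replicate 1, and 2 without 6 h replicate 2. With only the 6 libraries compared the list had 5 calls.

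Serum is a source of lysophospholipids that act on the actin-linked factor SRF and on YAP. Of 16 tested YAP and TEAD genes, 7 were called lower and 1 higher, with a median of -0.45. *Cyr61*, a secreted matrix protein, lay at 4.85, 4.83 and 4.79 in serum and at 3.32, 3.31 and 3.15 at 6 h, a 2.96-fold fall (adjusted p 2.13e-06). *Thbs1* fell by 1.29 and *Ctgf* by 0.82, whereas *Wwtr1*, which encodes the YAP partner TAZ, rose by 0.96 and *Yap1* changed by 0.03. The 8 calls were 5 without serum replicate 1 or 3 or 6 h replicate 2, and 13 with only the 6 libraries compared.

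In the SRF and actin list, of 21 tested, 4 were called lower, 1 higher and 16 not, and the median was -0.34. *Zyx*, a focal adhesion protein, fell by 1.09, *Srf* itself by 0.48 and *Tpm1* by 0.36. The call of *Srf* was lost without the filter and without any 1 of the 6 libraries, and that of *Tpm1* without serum replicate 1 or 2 or 6 h replicate 2 or 3. *Fhl2* fell by 0.63 (adjusted p 0.0409), a call lost without any 1 of the 6 libraries, without the filter, with an intensity trend and with the trend in gene span removed. *Lima1*, an actin-bundling protein, rose by 1.62. *Actb* lay at 9.57, 9.55 and 9.67 and then at 9.19, 9.02 and 9.19 (log2 -0.47, adjusted p 0.0775), and was called with the 6 libraries alone (0.00665), under quantile normalization (0.0215) and with the trend in gene span removed (0.0136). The 5 calls were 2 or 3 without any 1 of the 6 libraries, 3 without the filter and 12 with only those compared.

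Some promoters of this list hold CArG boxes, the sites that SRF binds, and 3 are shown, chosen after the values were seen. Of their genes 2 were called lower and 1 was not called, and whether their changes differ was not tested. A CArG box was found on either strand within 250 bases before to 50 after the RefSeq start in 8 of the 19 members with a promoter, and in 1.63% of all 32851 promoters of the RefSeq table (GRCm38.p6). The members were drawn up by pathway, so their share with a box was in part fixed by that choice. The stretches below end at the base before the start or further upstream, read 5′ to 3′ on the strand of the gene, with the CArG boxes in capitals.
Srf (chr17:46556203-46556272, minus strand): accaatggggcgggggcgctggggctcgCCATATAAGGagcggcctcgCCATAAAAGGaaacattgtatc
Fhl2 (chr1:43163962-43164031, minus strand): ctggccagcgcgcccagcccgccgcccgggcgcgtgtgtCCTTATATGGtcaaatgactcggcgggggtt
Actg1 (chr11:120348556-120348615, minus strand): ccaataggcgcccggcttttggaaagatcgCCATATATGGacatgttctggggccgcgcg
*Srf* has 2 boxes and was called lower, as was *Fhl2* with 1, and *Actg1*, with 1 box, changed by -0.20 and was not called (adjusted p 0.325). Of the 8 members with a box, 2 were called lower, 5 were not called and 1, *Lima1*, was called higher, by 1.62, the largest change of the list. The RefSeq start of *Lima1* lies 55279 bases from the gene start in the expression table.

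Genes of the amino acid response, in which the factor ATF4 raises amino acid synthesis, transport and stress genes, were the list with the largest number of rises. Of 23 tested, 14 were called higher and 2 lower, 4 changed by more than 2-fold, and the median was 0.72. *Nupr1*, a stress-induced chromatin protein, lay at 1.07, 0.67 and 0.91 in serum and at 3.45, 3.30 and 3.53 at 6 h, a 5.83-fold rise (adjusted p 4.2e-07). *Ddit3*, which encodes CHOP, went from 1.51, 1.70 and 1.53 to 3.69, 3.53 and 3.74, a 4.2-fold rise. *Vldlr*, a lipoprotein receptor of the list, rose by 2.04 from a low level, *Atf3* by 1.75, *Trib3* by 1.45 and *Chac1*, which degrades glutathione, by 1.10. *Atf4* itself rose by 0.72. Enzymes of the list differed, with *Pck2* higher by 0.81 and *Aldh18a1* by 0.80. *Asns* rose by 0.42 (a call lost without any 1 of the 6 libraries except 6 h replicate 3), and *Phgdh* (0.30) and *Psph* (0.18) were not called. The 2 members called lower were amino acid transporters, *Slc7a3* (-1.84) and *Slc38a2* (-0.90). The transporter gene *Slc3a2* was called higher by 0.32, a call lost under quantile normalization, without the filter and without any 1 of the 6 libraries. In the endoplasmic reticulum stress response 2 of 14 were called, a share near the 15.7% of all genes, and the median was -0.16, with *Hspa5*, its main chaperone, at -0.13. The members called were *Herpud1*, which rose by 0.97, and *Xbp1*, which fell by 1.20, and 4 were called with the replicate block and in the 6 libraries alone.

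The ATF4 motif TGATGCAA, searched on both strands, was found near the start of 3 of the 21 amino acid response members with a promoter, all 3 called higher, and of 1 of 13 members of the endoplasmic reticulum list, *Herpud1*. It was present in 0.895% of all promoters of the RefSeq table. Both lists were drawn up by pathway, so their shares with the motif were in part fixed by that choice. These 4 stretches are shown because the motif lies in the same orientation in each, as TTGCATCA on the strand of the gene (in capitals), starting 110 bases before the start in *Atf3* and *Nupr1*, 112 in *Herpud1* and 193 in *Chac1*.
Atf3 (chr1:191183414-191183473, minus strand): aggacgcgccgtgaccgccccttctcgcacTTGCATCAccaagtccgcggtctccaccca
Nupr1 (chr7:126625551-126625610, minus strand): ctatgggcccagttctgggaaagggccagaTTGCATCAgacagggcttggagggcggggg
Herpud1 (chr8:94386289-94386348, plus strand): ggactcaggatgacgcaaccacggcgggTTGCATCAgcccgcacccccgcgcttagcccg
Chac1 (chr2:119351022-119351081, plus strand): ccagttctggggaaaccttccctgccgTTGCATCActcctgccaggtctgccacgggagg
The RefSeq start of *Nupr1* lies 1540 bases from the gene start in the expression table, and those of the other 3 genes within 13 bases. *Ddit3* and *Trib3* hold no such match in this window.

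Genes of cholesterol synthesis and uptake, which the factor SREBP2 raises when sterols are scarce, included 10 called rises of modest size. Of 24 tested, 10 were called higher and 0 lower, and the 24 changes ranged from 0.10 to 1.13, with a median of 0.39. *Insig1*, which retains SREBP in the endoplasmic reticulum, lay at 3.81, 3.88 and 3.67 in serum and at 4.93, 4.96 and 4.85 at 6 h, a 2.19-fold rise. *Hsd17b7* rose by 0.89, *Sc4mol* by 0.83 and *Hmgcs1* by 0.62.

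Of 16 fatty acid synthesis genes 7 were called higher and 0 lower, with a median of 0.39 and changes from -0.46 to 2.04. *Acsl4* (-0.46) did not pass the test but was called lower in several settings. Among these were the 6 libraries alone (0.0225), the replicate block (0.0244) and quantile normalization (0.0469). The desaturase genes *Scd2* and *Scd1* rose 2.6-fold and 2-fold, while *Fasn* (0.23) and *Acaca* (0.18) did not pass the test. *Thrsp* was called higher by 2.04 (adjusted p 0.0404) from very low values, a call lost in the 6 libraries alone, under quantile normalization, without the filter, on the log2 (value + 1) scale, and without serum replicate 2 or 6 h replicate 2 or 3. The 7 calls were 4 without serum replicate 2 or 6 h replicate 2. In the list of lipid droplets and fatty acid use, 4 of 15 were higher and 1 lower, with a median of 0.10. *Cidea*, a lipid droplet protein, had the largest rise among genes that reached a level of 2 in at least 3 libraries, from -2.45, -1.01 and -0.93 to 3.04, 2.83 and 2.67 (log2 4.31 ± 0.36, 19.8-fold, adjusted p 1.44e-05). The lowest serum library stood apart from the other 2, and the groups were separated by more than 3 on the log2 scale. *Cidea* was chosen for the size of its rise and reached the level required for testing only in libraries of 2i. The separation of its groups is therefore no separate support. *Cpt1a*, which brings fatty acids into mitochondria, rose 2.88-fold. The 5 calls of this list were 3 without serum replicate 1 or 2 or 6 h replicate 1 or 2.

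In the Myc network 3 of 12 tested genes were called lower and 1 higher, with a median of -0.31. *Myc* lay at 5.22, 5.05 and 5.23 in serum and at 1.25, 1.15 and 1.31 at 6 h, a 15.2-fold fall with a small error (log2 -3.93 ± 0.11, adjusted p 1.21e-08). *Mycn*, which was higher than *Myc* in both groups, fell 2.46-fold, from 5.90, 5.85 and 6.09 to 4.70, 4.57 and 4.67. The partner *Max* changed by -0.26 and was not called, though it was in the 6 libraries alone (0.0354), on the log2 (value + 1) scale (0.0464) and with the trend in gene span removed (0.0443). Genes of ribosome biogenesis, many of them known Myc targets, had a median of -0.24, with 6 of 23 called lower and 0 higher. *Polr1b*, a subunit of RNA polymerase I, fell by 0.67, and *Gnl3* and *Nop2* by 0.47 and 0.45. The calls of *Nop2* and *Gnl3* were lost without serum replicate 1 or 6 h replicate 2, that of *Nop2* also without serum replicate 3 and that of *Gnl3* also without serum replicate 2 or 6 h replicate 3. The 6 calls of the list were 2 without serum replicate 1 and 1 without 6 h replicate 2.

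Of 24 tested genes of glycolysis and hypoxia, 7 were called lower and 3 higher, with a median of -0.21. *Pdk1*, which inhibits pyruvate dehydrogenase, lay at 4.08, 4.05 and 3.85 in serum and at 1.81, 1.94 and 1.60 at 6 h, a 4.62-fold fall. The glucose transporter gene *Slc2a1* went from 7.25, 7.19 and 7.23 to 5.63, 5.47 and 5.53, a 3.21-fold fall, and the hexokinase gene *Hk2* fell by 0.92. Most enzymes of the lower part of glycolysis were not called, among them *Gapdh* (0.10), *Pgk1* (-0.27), *Eno1* (-0.22) and *Ldha* (-0.26). *Vegfa* was called higher by 0.94 (adjusted p 0.0127), a call lost without serum replicate 1 (0.0512) or 6 h replicate 3 (0.0546). *Hk1* (0.62) and *Eno2* were also called higher. Both calls were lost under quantile normalization and on the log2 (value + 1) scale. That of *Hk1* was also lost without the filter and without any 1 of the 6 libraries. That of *Eno2* was also lost without serum replicate 1 or 2 or 6 h replicate 2 or 3. The 10 calls were 6 without serum replicate 1 or 6 h replicate 2 or 3.

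Cell cycle genes were mixed, with 5 of 27 higher, 6 lower and a median of 0.07. The kinase inhibitor genes *Cdkn1a*, which encodes p21, and *Cdkn1b* rose by 1.37 and 0.84. *Cdkn2c* rose by 1.93 from very low values, with means of -3.02 in serum and -1.09 at 6 h. It reached the level required for testing only in the libraries of 24 h. *Ccnd2* fell by 1.25, *Cdk6* by 1.00 and *E2f2* by 1.45. *Ccnd1*, a cyclin gene under mitogen control, lay at 4.75, 4.80 and 5.00 and then at 4.95, 4.86 and 5.01 and was not called (log2 0.09, 95% interval -0.16 to 0.35). Mitotic genes such as *Ccnb1* (-0.11) and *Cdk1* (0.29) did not pass the test either.

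Retinoic acid genes rose in part, 5 of 12 tested being called higher and 1 lower, with a median of 0.45. *Dhrs3*, which turns retinal back to retinol, rose by 1.76, and *Stra8*, a meiosis gene induced by retinoic acid, by 1.43. *Rdh10* and *Aldh1a2*, which make retinoic acid, rose by 0.90 and 0.77, and the receptor gene *Rarg* fell by 0.96. The call of *Aldh1a2* was lost in 4 other settings and without any 1 of the 6 libraries except serum replicate 2. Among targets of steroid and thyroid hormones, some of which N2 and B27 supplements contain, 3 of 8 were higher, with a median of 0.14. *Tsc22d3*, a glucocorticoid-induced leucine zipper gene, rose 4.31-fold from low values and *Thra*, the thyroid hormone receptor gene, 2.02-fold. *Fkbp5* rose by 0.51 (adjusted p 0.03), a call lost without the filter and without any 1 of the 6 libraries except serum replicate 3.

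Several of the largest changes belonged to genes outside these pathways. The largest called rises, of *Cnga4* (5.73 ± 0.42) and *2510009E07Rik* (5.70 ± 0.46), started from -5.12 and -4.90 in serum, where few reads can decide a value, and reached 0.61 and 0.80. *Rasgrp1*, an activator of RAS, lay at -1.51, -1.99 and -1.05 in serum and at 2.21, 2.36 and 2.31 at 6 h, a 14-fold rise. *Rgma*, a co-receptor for BMPs and a guidance molecule, went from -0.60, -0.39 and -0.50 to 2.90, 2.94 and 3.11, an 11.1-fold rise. The epithelial ETS factor *Elf3* rose 6.65-fold from 3.04, 2.99 and 3.09 to 5.76, 5.73 and 5.84. These 3 genes were chosen for the size of their rise, so its excess over the spread within the groups is no separate support. *Rasgrp1* and *Rgma* reached the level required for testing only in libraries of 2i. *Ap3b2*, a neuronal vesicle adaptor, rose 7.75-fold, *Mobp*, a myelin gene, 6.68-fold, *Efnb1*, an ephrin ligand, 6.17-fold, and *Cpeb1*, a regulator of polyadenylation, 6.03-fold. *Hesx1*, a homeobox gene, and *Gm4222* had no reads in any serum library. With 3 reads per serum library in place of the floor, their estimated rises at 6 h were 1.77-fold and 1.82-fold. These values leave out the counting error of the 6 h libraries, so they are no lower limits. *Gm4222* was not called by limma on the log2 (value + 1) scale (adjusted p 0.0799). Among falls, *6330407J23Rik* went down 10.1-fold and *Slc39a14*, a zinc and iron transporter, 7.57-fold.

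The values at 24 h and 72 h, from the same fit and against the same serum libraries, showed several courses side by side. *Dusp6* stood at its low level from 6 h on, at -5.28, -4.86 and -5.41 relative to serum after 6, 24 and 72 h. *Etv4* was at -1.07, then -5.30 and -5.69, and *Id1* at -0.96, -3.69 and -5.36. *Ccnd1* was at 0.09, -1.77 and -2.67. In these 3 genes the larger part of the final difference was reached only after 6 h.

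Other genes differed from serum at 6 h and were close to it at 24 h. *Sp8* was at 1.80, 0.02 and 0.21, *Axin2* at 1.34, -0.27 and 0.58, and *Fgfr1* at 0.94, -0.06 and -0.10. The adjusted p at 24 h was 0.934, 0.239 and 0.761 in these genes. *Sp8* was tested only through the libraries of 6 h, so its lower level at 24 h is in part fixed by the filter. Falls at 6 h that lay close to serum at 24 h were those of *Sox2* (-0.85, -0.03 and 0.18) and *Maff* (-1.67, -0.29 and -0.18). *Tfcp2l1* was at 1.46, 0.42 and 1.68, with libraries of 24 h spread more widely than those of 6 h. A change of side was seen in *Dll1*, a Notch ligand, at 1.28, 0.31 and -2.81, and in *Lefty1* at 1.34, 1.99 and -1.41. *Cidea* was at 4.31, 4.76 and 6.23.

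**Figure D5:**
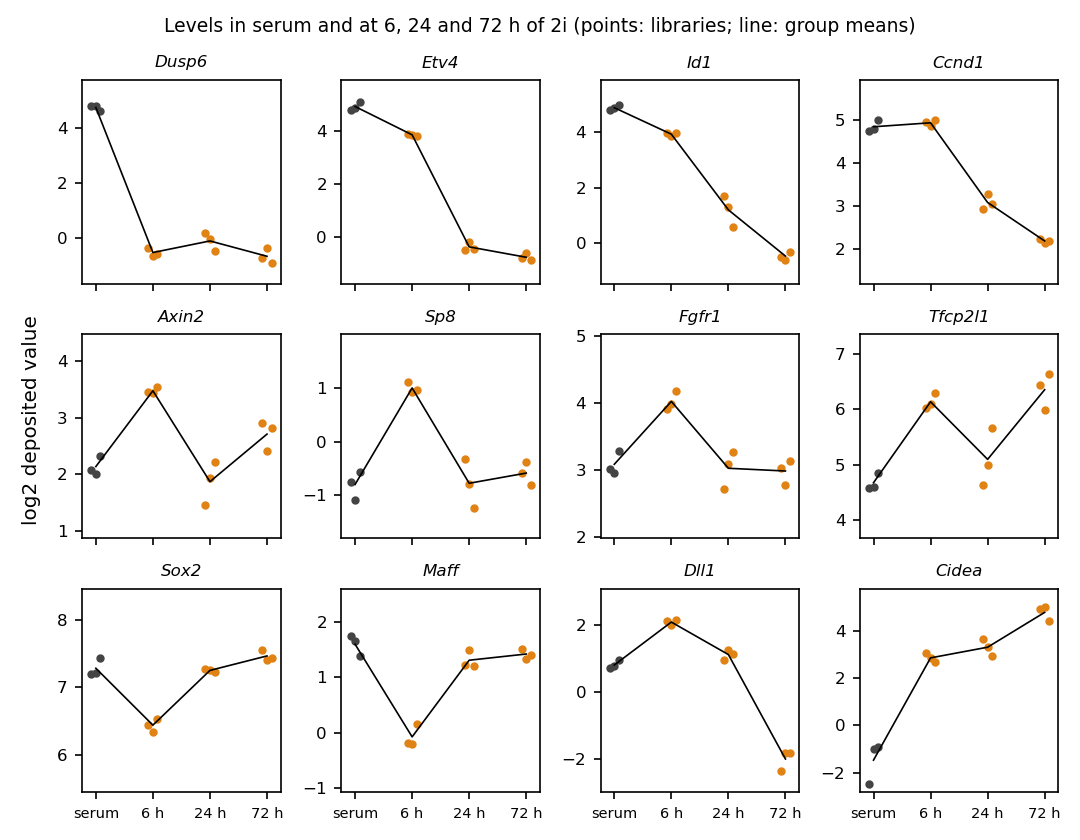
Log2 deposited values of 12 genes in serum (dark) and at 6, 24 and 72 h of 2i (orange), 3 libraries each as points, with a line through the group means and equally spaced groups. *Dusp6* and *Cidea* differ from serum from 6 h on, *Etv4*, *Id1* and *Ccnd1* fall mainly later, and *Axin2*, *Sp8*, *Fgfr1*, *Sox2* and *Maff* lie closer to serum at 24 h than at 6 h.

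Further lists ranged from no call to calls in 8 of 18 members. No heat shock gene of 14 was called by limma (median -0.04, with 3 at an unadjusted p under 0.05, 3 called in the 6 libraries alone and 1 with the replicate block), with *Hspa8* at -0.29 and *Hsph1* at -0.39. Of 17 p53 targets (median -0.07), 2 were higher and 2 lower, *Cdkn1a* and *Gdf15* (1.49) against *Trp53* (-0.52) and *Pmaip1* (-0.56), while *Mdm2*, the classical target, changed by -0.10. Antioxidant and metal genes had 4 of 19 higher and a median of 0.29, with *Srxn1* at 0.84 and the metallothionein gene *Mt1* at 0.81, and 1 lower, the zinc importer *Slc39a10*, which fell by 1.00. The 5 calls of that list were 3 without serum replicate 1 or 2 or 6 h replicate 1 or 2, 9 with the replicate block, 8 under quantile normalization and 13 in the 6 libraries alone. FoxO and insulin genes were split, with 4 of 18 in each direction and a median of -0.27, among them *Trib1* (-1.54), *Cited2* (-1.09) and *Foxo1* (-0.99). In the Notch list of 13 (median 0.14), *Hes1* (1.46) and *Dll1* were higher and *Rbpj* (-1.56), the DNA-binding partner of Notch, and *Dll3* (-0.67) lower, the last a call lost without serum replicate 1 or 3 or 6 h replicate 2 or 3. Of 8 Hedgehog genes, 1 was called (12.5%, median 0.11), and of 6 LXR targets 1 (16.7%, median 0.13), both shares near the 15.7% of all genes. The LXR target called was *Abcg1* (-0.53, adjusted p 0.0474), lost under centering, an intensity trend, no filter, the log2 (value + 1) scale, and without any 1 of the 6 libraries except 6 h replicate 3.

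Calls among markers of other cell types and states are to be read beside the 15.7% of all genes. The shares were 10% in primitive endoderm, 25% in fibroblast and 0% in two-cell-like genes. They were 50% in mesendoderm, 75% in neurectoderm and 37.5% in trophectoderm. So few members were tested in each list that 1 gene can move a share widely. Of 10 tested primitive endoderm markers (median 0.03), 9 were not called, with *Gata6* at -0.05 and *Col4a1* at 0.02, and the summed linear level of the list ran from 153 to 169 in serum and from 154 to 163 at 6 h. *Dab2* was called lower (-0.58, adjusted p 0.0486), but not without any 1 of the 6 libraries, without the filter, under centering or with an intensity trend. In the fibroblast list (median -0.03) 1 of 4 was called, *Thy1* (-0.54, adjusted p 0.0421), lost in 4 of the other fits and without any 1 of the 6 libraries except serum replicate 2. *Lum*, *Postn* and *Dcn*, defining fibroblast genes, were below the level required for testing in both groups. Of 9 two-cell-like genes (median -0.1) 0 were called by limma, 0 had an unadjusted p under 0.05, and 0 were called in every other setting, with *Zscan4c* at -0.10. Of 6 mesendoderm genes (median 0.25) 2 were called higher and 1 lower, with a summed level of 6.4 to 7.74 in serum and 7.47 to 7.78 at 6 h. *Gsc* was called higher by 2.83 from a very low level (-2.99, -4.30 and -2.85 in serum, -0.11, -0.54 and -1.01 at 6 h), though not on the log2 (value + 1) scale (adjusted p 0.211). *Fgf8*, described above, was the other call upward, and *Eomes* was lower by 1.05. Of 4 tested neurectoderm genes 1 was called higher and 2 lower, with a median of -0.71. *Tubb3*, a neuronal tubulin gene, rose by 1.11, from a mean of 5.38 to 6.49, and *Sox1* fell by 0.79. The list's summed linear level ran from 57.2 to 61.6 in serum and from 99.4 to 101 at 6 h, and *Tubb3* was the one tested member whose change was positive. *Sox11* was called lower by 0.80 (adjusted p 0.0451) but not with the replicate block (0.0548), under quantile normalization, without the filter, or without any 1 of the 6 libraries. Of 8 trophectoderm genes (median 0.1) 1 was called higher and 2 lower, and the summed level ran from 113 to 126 in serum and from 130 to 142 at 6 h. *Tfap2c* rose 3.41-fold, from 2.88, 2.78 and 3.05 to 4.71, 4.59 and 4.71, and *Hand1* and *Eomes* fell by 1.10 and 1.05. The part of cell composition in these results was not tested.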

How the data were processed

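RNA of the E14 line was sequenced by the authors as 50-base single-end reads from a kit that does not mark strand, so overlapping antisense genes cannot be told apart. The deposited values are log2 levels per gene, which the authors corrected for length and depth and set to a common 75th percentile, with gene coordinates of GRCm38. Rows lacking reads hold the value that 0.9 reads would give. The processing notes name Trim Galore 0.3.5 and TopHat2 2.0.11, and the sources used here do not name the counter. Reads could not be recovered, so no count model was run.

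Genes with a log2 value of 0 or more in at least 3 of 12 libraries were fitted with limma 3.58.1 (R 4.3.3), all 12 libraries in one fit, with Benjamini-Hochberg adjustment over 12306 genes and calls at an adjusted p under 0.05, two-sided. Fold changes are on the deposited log2 scale and low genes are bounded by the floor. Standard errors and intervals come from this moderated fit. The script was tested on simulated data. Replicates are samples with separate labels, which the study calls biological. Libraries of serum and 6 h with the same replicate number deviated together from their group means (correlations of 0.281, 0.159 and 0.542 across genes). Replicates 1 and 2 did so across numbers too, at 0.247 (serum 2 with 6 h 1) and 0.139 (serum 1 with 6 h 2). Pairs of replicate 3 with another number were negative (-0.424 to -0.241). A fit with the number as a block was an alternative.

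Named genes were the 12 largest rises and 12 largest falls among called genes with a log2 value of 2 or more in at least 3 libraries, the 3 largest called members of each list, and a set of pathway and reference genes given whether called or not. The members and lists were chosen with earlier results of these data known, and other list members given in the text were chosen after their values were seen. Lists are described by counts and medians, to be read against those of all genes, with no set test. Symbols *Hras*, *Ajuba*, *Noc2l* and *Map2* were not matched. RefSeq promoters were matched to 9254 of 12306 genes (75.2%), under 80%, so shares of motifs among all called genes are not compared. H3K9me2 ChIP-seq of serum ESCs was deposited as log2 read counts in 2-kb bins, and bound over input was computed from it per gene with 20 or more input reads. Methylation files were not used here. Results for some genes are not reported here.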

Additional observations from a re-analysis of the deposited data

How the results depend on the processing

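The adjusted p threshold of 0.01 left 1056 called genes of 1934, and a change of 2-fold or more besides an adjusted p under 0.05 left 658. The 6 libraries alone called 3485 genes (1944 higher, 1541 lower), and a required level of 2 gave 1181 (640 higher), with 80 changed by more than 2-fold and 33 of those higher. On the log2 (value + 1) scale 59 changed by more than 2-fold, 19 higher and 40 lower, since that scale shrinks changes of low genes. Leaving out 1 library at a time gave 1271 to 1451 called genes, 756 to 889 higher and 502 to 571 lower, and 104 to 126 changed by more than 2-fold, 55 to 74 higher and 46 to 53 lower. The lowest total came without 6 h replicate 2 (1271) and the next without serum replicate 1 (1280). The fit with the replicate block called 2606 genes, and 1931 of the 1934 were among them. Among 126 named genes it changed the calls given in the text (*Klf4* gained, *Sox11* lost) and no other, and of the further list members given in the text it gained *Acsl4*, *Dazl*, *Sycp3* and *Slc25a31*. Quantile normalization called 1987 genes, 1694 of them shared, and 2 of the 1934 had the other sign there. The other settings, namely centering on the median (1961 genes), no filter (2154 of 19814), an intensity trend (1920) and the trend in gene span removed (2279), stayed within 1.5 times the count. Of the 1934 calls they kept 1889, 1549, 1861 and 1806 in that order. Genes called higher made up 53.4% to 61.7% over these settings, and the median change of all genes lay between -0.005 and 0.053, against 0.011. No named gene changed direction in any setting. With the 6 libraries alone 1 of the 126 lost its call, whereas the fits without 1 library kept those of 24 h and 72 h. Over all settings 22 of the 126 lost their call, 20 on leaving out 1 library, and the cause was not tested. Besides those in the text and 1 gene not reported here, *Mxd3* lost its call without serum replicate 3 (0.0538) or 6 h replicate 2 (0.0596). With the 6 libraries alone, the calls rose from 3 to 7 in the FGF and ERK cascade, from 4 to 7 in p53 targets, from 4 to 7 in the Myc network, from 8 to 13 in FoxO and insulin, from 5 to 8 in lipid droplets, from 3 to 6 in hormone targets from 6 to 10 in germ line from 1 to 3 in Hedgehog and from 1 to 2 in LXR targets. The FGF and ERK cascade had 5 calls under centering, quantile normalization, the log2 (value + 1) scale and the trend in gene span removed. A required level of 2, which leaves fewer members tested, took ERK immediate early genes from 11 to 6 calls, Wnt targets from 8 to 5, YAP and TEAD from 8 to 5, germ line from 6 to 3, mesendoderm from 3 to 0, the Myc network from 4 to 2, trophectoderm and hormone targets from 3 to 1, and LXR, fibroblast and primitive endoderm from 1 to 0. Depth is unknown, so no counting interval can be given.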

Other observations

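Germ line genes, many of which are silenced by DNA methylation in somatic cells, included 6 called rises. Of 12 tested, 6 were called higher and 0 lower, the 12 changes ranged from 0.14 to 1.47, and the median was 0.72 beside 0.011 over all genes tested. The summed linear level of the list ran from 40.9 to 49 in serum and from 68.1 to 82.9 at 6 h, without overlap. *Taf7l*, a germ cell subunit of the general transcription machinery, rose by 0.78, *Prdm1*, a founder factor of germ cells, by 0.60 (a call lost without serum replicate 1 or 2 or 6 h replicate 2 or 3) and *Ddx4*, the germ cell helicase Vasa, by 0.58. *Dazl* (0.73) and *Sycp3* (0.98) did not pass the test, but with the replicate block both were called (adjusted p 0.0307 and 0.0166), as was *Slc25a31* (0.70, adjusted p 0.0327), for 9 calls in the list. *Tex101* (1.47, adjusted p 0.0321) was not called under quantile normalization, without the filter or without any 1 of the 6 libraries, and *Hormad1* (0.88, adjusted p 0.0176) not without serum replicate 3 or 6 h replicate 1 or 2. *Tex101*, the top of the range, reached the level required for testing only in the libraries of 6 h and 1 of 24 h. Its place among the rises is therefore in part fixed by the filter. The 6 calls were 3 without 6 h replicate 2.

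A second readout of serum cells that did not choose the genes, dimethylation of histone H3 at lysine 9 (H3K9me2), was set beside the early response for 11494 genes. The median log2 ratio of bound over input reads across the gene was -1.16 and -1.29 in the 2 serum libraries for genes called higher, -1.74 and -1.81 for genes called lower and -1.75 and -1.85 for genes not called. The same was read within 3 sets of these genes, equal in size and divided by serum level. In the low set the medians were -0.81 and -0.97 for genes called higher, -0.99 and -1.08 for genes called lower and -1 and -1.12 for the rest. In the high set they were -2.22 and -2.25 for genes called higher, -2.24 and -2.28 for genes called lower and -2.37 and -2.47 for the rest. In the middle set they were -1.42 and -1.61, -1.67 and -1.75, and -1.62 and -1.73 in the same order. The low set holds genes that were tested only because they reached the required level in libraries of 2i, so its genes called higher are in part chosen by the filter. Both libraries share 1 input, and no test was made. Genes called higher spanned a median of 24.8 kb, those called lower 22.4 kb and the rest 19.5 kb.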
